A study of Homo sapiens with 4 samples.

Results

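The genes described are 43 nuclear factors of mitochondrial gene expression. They were taken by symbol from a list of nuclear genes for replication and transcription of mitochondrial DNA (mtDNA) and for processing, decay and translation of mitochondrial RNA, a rule that uses no measured value. All 43 were found by symbol among the 62700 genes of the deposited count table, and all 43 had enough counts to be tested. RNA was sequenced in 4 libraries of HEK293T cells, an immortalised human embryonic kidney line, all with the genotype label CMV-V5-MITO-PRADA, a V5-tagged construct placed in the mitochondrial matrix for labelling molecules around it. Before harvest every culture was kept for 5 h in 100 µM s4U, which replaces uridine in RNA as it is made. Alkyne phenol at 0.5 mM was then present, still with s4U, for 30 min. In the 2 labelled libraries 10 mM D-amino acid had been added for the last step of 30 min, which starts the reaction, and the 2 unlabelled libraries came from cells without it. The titles mark the groups as 4SU+AP+DF and 4SU+AP. The labels give the cell type as a stable clone derived from the kidney line, so 1 cell background carries every comparison. The design text calls the material labelled and enriched, which makes each level below a share of the captured RNA and not a count of transcripts in a cell. In such bulk RNA, fewer cells expressing a gene and less of its RNA per cell cannot be told apart. Both replicates of each group are called biological replicates in the titles, with no word on separate cultures, and p-values measure no more than the spread among these 4 libraries.

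Mitochondria keep a small circular genome that encodes a few subunits of the respiratory chain together with the rRNAs and tRNAs needed to translate them. Every protein that copies, transcribes, cuts, modifies, stabilises, degrades or translates these RNAs is encoded in the nucleus, translated in the cytosol and imported into the matrix. Long precursor RNAs are made from both strands of the circle, and the tRNAs between the coding sequences are cut out to release the mRNAs and rRNAs.

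The 4 libraries held 5771795 to 12287451 assigned fragments. Among the members the median count per library was 260 to 471 fragments and the lowest was 22. Levels are given as counts per 1000000 (CPM) after TMM scaling, a library scaling based on genes shared by the libraries. A count of 3 fragments, the limit that a count of 0 allows, stood at 0.289 to 0.453 CPM. Transcripts of the mitochondrial chromosome took 9.04% and 10.4% of assigned fragments in the unlabelled libraries and 27.0% and 30.9% in the labelled ones. Unlabelled replicate 2 was the most distant library: over all genes, its median absolute log2 difference to each of the others was 0.249 to 0.279, and the others differed among themselves by 0.131 to 0.194. Of 6 genes listed as expressed by this cell line, all 6 were tested. Their summed levels were 372 and 312 CPM in the unlabelled and 343 and 350.2 CPM in the labelled libraries. LIN28B and VIM made up most of these sums, with means of 129 and 191 CPM over the 4 libraries. CDH2, NEFL, NEFM and PAX2 were low, with means of 5.92, 5.51, 1.36 and 11.6 CPM. Of 4 blood cell markers none was tested, CD3E and HBB were at 0 in all libraries, and the sums ran from 0.223 to 1.51 CPM. Of 5 markers of fibroblasts and endothelium 1 was tested (COL1A1), and COL1A2 was at 0. The sums ran from 12.8 CPM in unlabelled replicate 2 to 20.8 to 21.0 CPM in the others. COL1A1 had a mean of 17.9 CPM over the 4 libraries, above those of CDH2, NEFL, NEFM and PAX2.

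None of the 43 members passed the test between labelled and unlabelled libraries. The count was 0 higher and 0 lower at an edgeR adjusted p under 0.05, against 0.269% of all genes tested called higher and 0.0158% called lower (0.285% in either direction). DESeq2 also called 0 members and 0.422% of all genes, and a fit with the replicate number as a block called 0 members and 1.24% of all genes. At an unadjusted edgeR p under 0.05 there were 4 higher (TWNK, MTPAP, MTRFR and GFM2) and 1 lower (C1QBP), where 5.67% of all genes were higher and 5.88% lower (11.5% together), and DESeq2 had 3, where 5% of all genes passed. The median log2 fold change of the members, labelled over unlabelled, was 0.05, beside -0.01 over all 18973 genes tested. There were 28 members with a positive and 15 with a negative value, and 48% of all genes were positive. An absolute log2 fold change above 0.25 was seen for 9 of the 43 members and for 39.9% of all genes.

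Standard errors of the members were smaller than those of the table as a whole, as were those of like lists of nuclear genes. The median standard error of the log2 fold change was 0.14 for the members, from 0.12 to 0.31, and 0.19 over all genes. It was taken from the fold change and its F statistic. The median was 0.13 for other genes of the pathway, and 0.14 for mitochondrial ribosomal proteins and for nuclear-encoded respiratory chain subunits. The median level was 42.0 CPM for the members and 15.1 CPM over all genes tested. Every member's 95% interval lay between -0.69 and 0.86, so a change of 1 on the log2 scale lay outside all 43 intervals. In simulated counts with the same library sizes, the test recovered 67.7% of genes given a log2 change of 1 and 94.7% of those given 2. The labelled libraries lay wholly above the unlabelled ones for 16 members, against 22.2% of all genes, and wholly below for 4, against 22.4%, and the groups overlapped for 23.

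**Figure D1:**
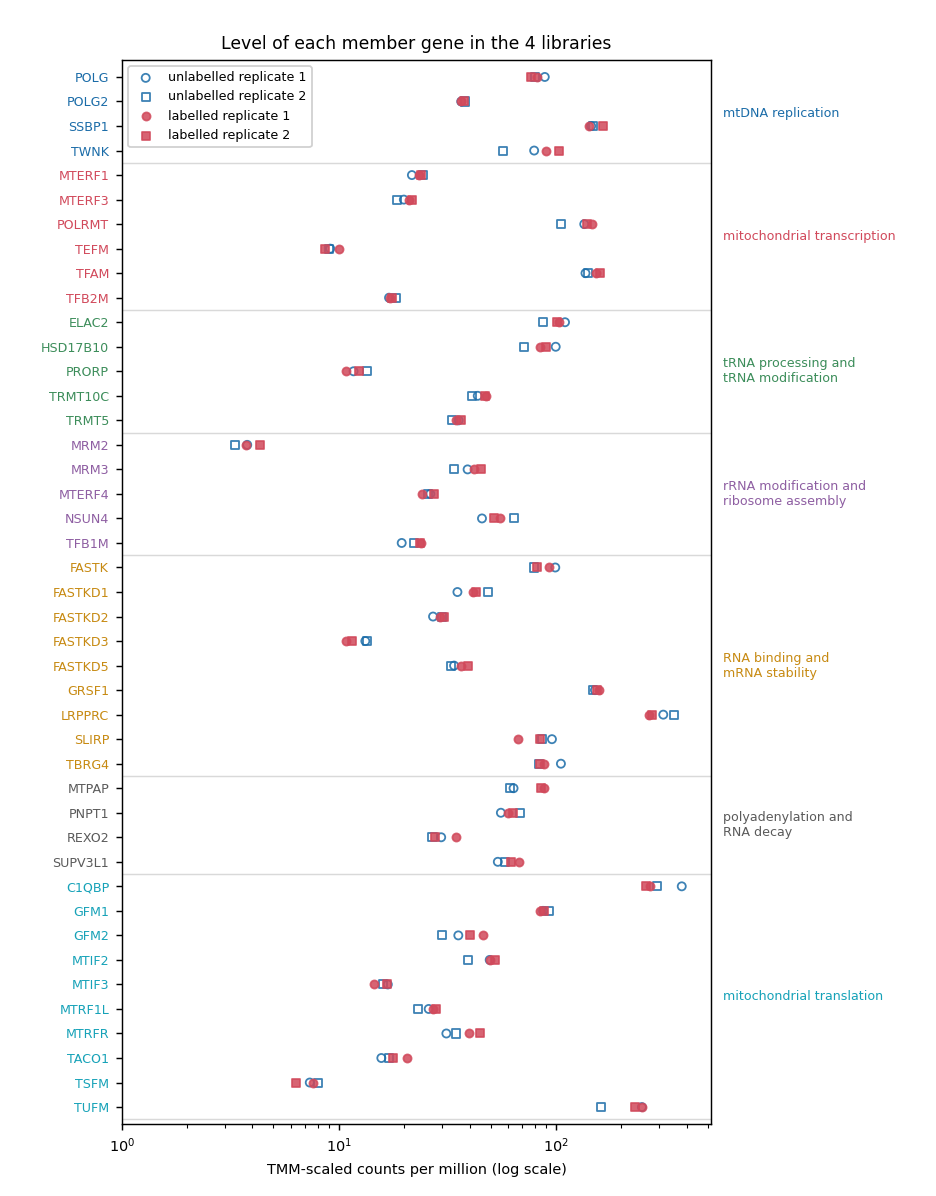
TMM-scaled CPM (log scale) of the 43 members in each of the 4 libraries, grouped by function; open symbols are unlabelled and filled symbols labelled libraries, with circles for replicate 1 and squares for replicate 2. For most members the 4 symbols lie close together, while unlabelled replicate 2 stands to the left for TWNK and TUFM and unlabelled replicate 1 stands to the right for C1QBP.

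The 4 factors of mtDNA replication had a median log2 fold change of 0.03. TWNK, the helicase that unwinds mtDNA (ENSG00000107815.10, chromosome 10, 100987367 to 100994403, GRCh38), had 79.4 and 56.9 CPM in the unlabelled and 90.4 and 104 CPM in the labelled libraries. Both labelled values lay above both unlabelled ones, and unlabelled replicate 2 was the lowest. Its log2 fold change of 0.50 ± 0.16 (SE, n = 2 libraries per group) was the highest of any member and had an edgeR adjusted p of 0.303. When unlabelled replicate 1 was left out, TWNK was at 0.80, and without unlabelled replicate 2 its value was 0.30. SSBP1, the single-stranded DNA binding protein of the replication fork, had 145 and 149 CPM in the unlabelled and 141 and 165 CPM in the labelled libraries, which overlapped. POLG2, the accessory subunit of the DNA polymerase, was at 36.6 and 38.0 CPM against 36.7 and 37.7 CPM, the closest agreement between groups in the list, with a log2 fold change of -0.00 ± 0.12. POLG, the catalytic subunit, had -0.10 ± 0.13. Per kilobase of annotated exons POLG stood at 9.89 CPM (9.27 to 10.7 over the 4 libraries) and POLG2 at 8.20 CPM (8.06 to 8.37), with no overlap. Per kilobase of transcript the order was the other way, at 18.2 CPM for POLG and 23.8 CPM for POLG2.

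Transcription is carried by 6 members, with a median log2 fold change of 0.10. POLRMT, the single-subunit RNA polymerase, was measured at 135 and 105 CPM in the unlabelled and 146 and 139 CPM in the labelled libraries. TFAM, which packages mtDNA and bends its promoters, was at 137 and 140.3 CPM against 153 and 160.2 CPM. In both genes the labelled values were all above the unlabelled ones, but POLRMT rested on the low value of unlabelled replicate 2. The log2 fold changes were 0.24 ± 0.15 for POLRMT and 0.18 ± 0.13 for TFAM, with edgeR adjusted p of 0.544 and 0.616. Without unlabelled replicate 1, POLRMT reached 0.47, and without unlabelled replicate 2 it was at 0.080. TFB2M, the factor that melts the promoter, had 17.0 and 18.4 CPM in the unlabelled and 17.1 and 17.5 CPM in the labelled libraries, and TEFM, the elongation factor, had 9.13 and 9.05 CPM against 10.0 and 8.66 CPM. Neither showed any separation of the groups. Of the MTERF proteins, which bind mtDNA or RNA, MTERF1 had a log2 fold change of 0.04 ± 0.14, and MTERF3 had 0.15 ± 0.15 with labelled values above unlabelled ones. As a share of nuclear fragments the 6 genes summed to 0.0411% and 0.0405% in the unlabelled libraries against 0.0466% and 0.0455% in the labelled ones, a ratio of 1.13 at the smallest p that 2 against 2 libraries allow (exact permutation test, two-sided, p = 0.333).

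Transcription of several of these nuclear genes is known to depend on nuclear respiratory factors, and their promoters are shown for the letters that members have in common. RefSeq promoter windows on GRCh38.p14, from 250 bases before to 50 bases after the gene start, were found for 40 of the 43 members. The core of the NRF1 motif, GCGCA followed by any base and GCGC, was searched on both strands and stood in 6 of the 40 (15%), against 6.29% of all 27305 promoters and 11.2% of the 11951 promoters of tested genes. The core of the ETS motif bound by GABP, CCGGAAG, stood in 18 of the 40 (45%), against 10.7% and 18.0%. Both cores stood in 3 members (7.5%), POLRMT, TFB1M and POLG2, against 1.26% and 2.41%. The stretches that hold them are printed with those of TFAM, which has the NRF1 core alone, in the direction of the gene, with the cores in capitals; an ETS core on the opposite strand reads CTTCCGG, and in POLRMT a pair of overlapping NRF1 cores forms 1 run.
POLRMT, chr19:633538-633640 (minus strand): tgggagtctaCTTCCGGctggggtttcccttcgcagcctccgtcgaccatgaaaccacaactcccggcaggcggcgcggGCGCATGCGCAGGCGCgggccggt
TFAM, chr10:58385337-58385366 (plus strand): acgctctcccGCGCCTGCGCcaattccgcc
TFB1M, chr6:155314553-155314626 (minus strand): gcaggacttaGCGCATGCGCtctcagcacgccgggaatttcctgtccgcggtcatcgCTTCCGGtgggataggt
POLG2, chr17:64497055-64497123 (minus strand): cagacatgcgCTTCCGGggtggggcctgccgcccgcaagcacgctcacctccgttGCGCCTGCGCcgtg
A match describes letters only. The members without either core in this window, MTPAP and LRPPRC among them, can hold variants that these letters miss.

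Release and modification of tRNAs is the work of 5 members, with a median log2 fold change of 0.05. RNase P, which cuts at the front end of tRNAs, is built from TRMT10C, HSD17B10 and PRORP. HSD17B10 had 99.8 and 71.5 CPM in the unlabelled and 84.1 and 89.9 CPM in the labelled libraries, so the labelled values lay between the unlabelled ones. PRORP, the nuclease itself, had 11.7 and 13.4 CPM against 10.8 and 12.4 CPM, again with overlap. TRMT10C, its methyltransferase partner, was at 43.7 and 40.9 CPM against 47.8 and 47.2 CPM. The labelled values of TRMT10C were above the unlabelled ones, with a log2 fold change of 0.17 ± 0.12 and an edgeR adjusted p of 0.628. The log2 fold change of HSD17B10 was 0.02 ± 0.16 with all 4 libraries. It was 0.32 without unlabelled replicate 1, and without unlabelled replicate 2 it had the opposite sign, -0.19. ELAC2, which cuts at the tail end of tRNAs, and TRMT5, a tRNA methyltransferase, both had a log2 fold change of 0.05. Per kilobase of annotated exons, HSD17B10 at 30.6 CPM (25.3 to 35.4 over the 4 libraries) and TRMT10C at 23.9 CPM (21.7 to 25.4) stood far above their partner PRORP at 1.73 CPM (1.55 to 1.92). Of PRORP's exon bases, 45.9% are shared with another annotated gene, and fragments there are not counted for either gene.

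Modification of rRNA and assembly of the ribosome is represented by 5 members, with a median log2 fold change of 0.18. MRM3, a methyltransferase of the large rRNA, was measured at 39.2 and 33.8 CPM in the unlabelled and 42.0 and 45.3 CPM in the labelled libraries. Its labelled values were all higher, with a log2 fold change of 0.25 ± 0.13 and an edgeR adjusted p of 0.481. That fold change was 0.40 without unlabelled replicate 1 and 0.16 without unlabelled replicate 2. MRM2, another methyltransferase of the large rRNA, had 3.79 and 3.32 CPM against 3.73 and 4.33 CPM, with overlap. Its counts were 34 and 22 against 32 and 45 fragments, and 90.9% of its exon bases are shared with other genes. The log2 fold change of MRM2, 0.18 ± 0.31, was the least precise. TFB1M, which dimethylates the small rRNA, had 0.20 ± 0.15, with both labelled libraries at 23.8 CPM above 19.5 and 22.2 CPM. NSUN4 and its partner MTERF4, which act together on the ribosome, had -0.04 ± 0.16 and -0.01 ± 0.14. By log2 ratio, NSUN4 was the member most in excess in unlabelled replicate 2 over replicate 1, at 64.4 CPM against 45.7 CPM in unlabelled replicate 1, with the labelled libraries between them at 55.0 and 51.8 CPM.

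RNA binding and mRNA stability, with 9 members, was the only function with a negative median, -0.04. Its sign differed among the fits that left out 1 library (-0.18 without unlabelled replicate 2, 0.02 without unlabelled replicate 1). With all 4 libraries and a trend on GC content removed, the median was 0.02. LRPPRC (ENSG00000138095.20, chromosome 2, 43886224 to 43996226), which protects mitochondrial mRNAs from decay and keeps them open for translation, had 312 and 351 CPM in the unlabelled and 269 and 278 CPM in the labelled libraries. Its small partner SLIRP had 95.9 and 86.3 CPM against 66.6 and 84.1 CPM. For both genes all labelled values were below all unlabelled ones, though SLIRP came close to touching. With all 4 libraries the log2 fold changes of the partners were -0.28 ± 0.14 for LRPPRC and -0.27 ± 0.14 for SLIRP, each with an edgeR adjusted p of 0.481. LRPPRC was at -0.33 without unlabelled replicate 1, a fit in which 19% of all genes were called. SLIRP was at -0.34 without unlabelled replicate 2, where 4.61% of all genes were called. Both fits leave 1 unlabelled library and take its spread from the labelled pair, so neither is read as a call on these genes. The partners did not keep a like size. SLIRP was at -0.16 without unlabelled replicate 1 and -0.096 without labelled replicate 1. LRPPRC was at -0.18 without unlabelled replicate 2.

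The 6 proteins of the FASTK family, which process or stabilise particular mitochondrial RNAs, did not share a direction. FASTKD3 had 13.3 and 13.4 CPM in the unlabelled and 10.8 and 11.4 CPM in the labelled libraries, and FASTKD5 had 34.0 and 32.9 CPM against 36.5 and 39.2 CPM. So the groups were apart for both genes but in opposite orders, with log2 fold changes of -0.26 ± 0.18 and 0.18 ± 0.13. FASTKD2 was at 27.2 and 30.0 CPM against 29.2 and 30.4 CPM, and FASTKD1 at 35.2 and 48.6 CPM against 41.4 and 42.9 CPM. The groups overlapped for these genes and for FASTK and TBRG4 (FASTKD4), whose log2 fold changes were -0.04 ± 0.14 and -0.13 ± 0.14. GRSF1, an RNA binding protein of mitochondrial RNA granules, was at 151 and 149 CPM against 158 and 154 CPM, a separation of a few CPM with a log2 fold change of 0.06 ± 0.13. Summed over the 9 genes, the share of nuclear fragments was 0.106% and 0.112% in the unlabelled libraries against 0.0995% and 0.0991% in the labelled ones (ratio 0.912, exact permutation p = 0.333, two-sided).

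Polyadenylation and decay had 4 members and a median log2 fold change of 0.17. MTPAP, the poly(A) polymerase of mitochondrial mRNAs (ENSG00000107951.15, chromosome 10, 30309801 to 30374448), was at 63.8 and 61.4 CPM in the unlabelled and 87.7 and 84.9 CPM in the labelled libraries. Both labelled values stood well above both unlabelled ones, and the replicates of each group lay close together. Its group means were 62.6 ± 1.70 and 86.3 ± 1.94 CPM (SD, n = 2 each). The log2 fold change of 0.46 ± 0.12 (95% interval 0.20 to 0.73) had the lowest p of any member, unadjusted 0.00253 and 0.225 after edgeR's adjustment over all genes. With 1 library left out, MTPAP was at 0.52 and 0.44 without unlabelled replicates 1 and 2. It was at 0.46 and 0.50 without labelled replicates 1 and 2. Such a fit takes its spread from the group that keeps 2 libraries. The unlabelled pair differed more than the labelled pair. Calls in such fits are given below only as counts over the members, not by name. Of its exon bases, 33.3% are shared with other annotated genes.

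The degradosome pair of SUPV3L1, an RNA helicase, and PNPT1, an exonuclease, stood at similar levels per kilobase of annotated exons, 14.2 and 11.7 CPM. Per kilobase of transcript they were further apart, at 24.4 and 14.05 CPM. SUPV3L1 had 54.0 and 58.5 CPM in the unlabelled and 67.7 and 62.4 CPM in the labelled libraries, and PNPT1 had a log2 fold change of 0.01 ± 0.13. SUPV3L1's labelled values were all higher, with a log2 fold change of 0.21 ± 0.13 and an edgeR adjusted p of 0.543. REXO2, which clears the short RNA fragments that decay leaves, was at 29.6 and 27.0 CPM against 34.5 and 27.6 CPM, with overlap. The 4 genes together took 0.0246% and 0.0276% of nuclear fragments in the unlabelled libraries against 0.0314% and 0.0293% in the labelled ones (ratio 1.16, exact permutation p = 0.333, two-sided).

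**Figure D2:**
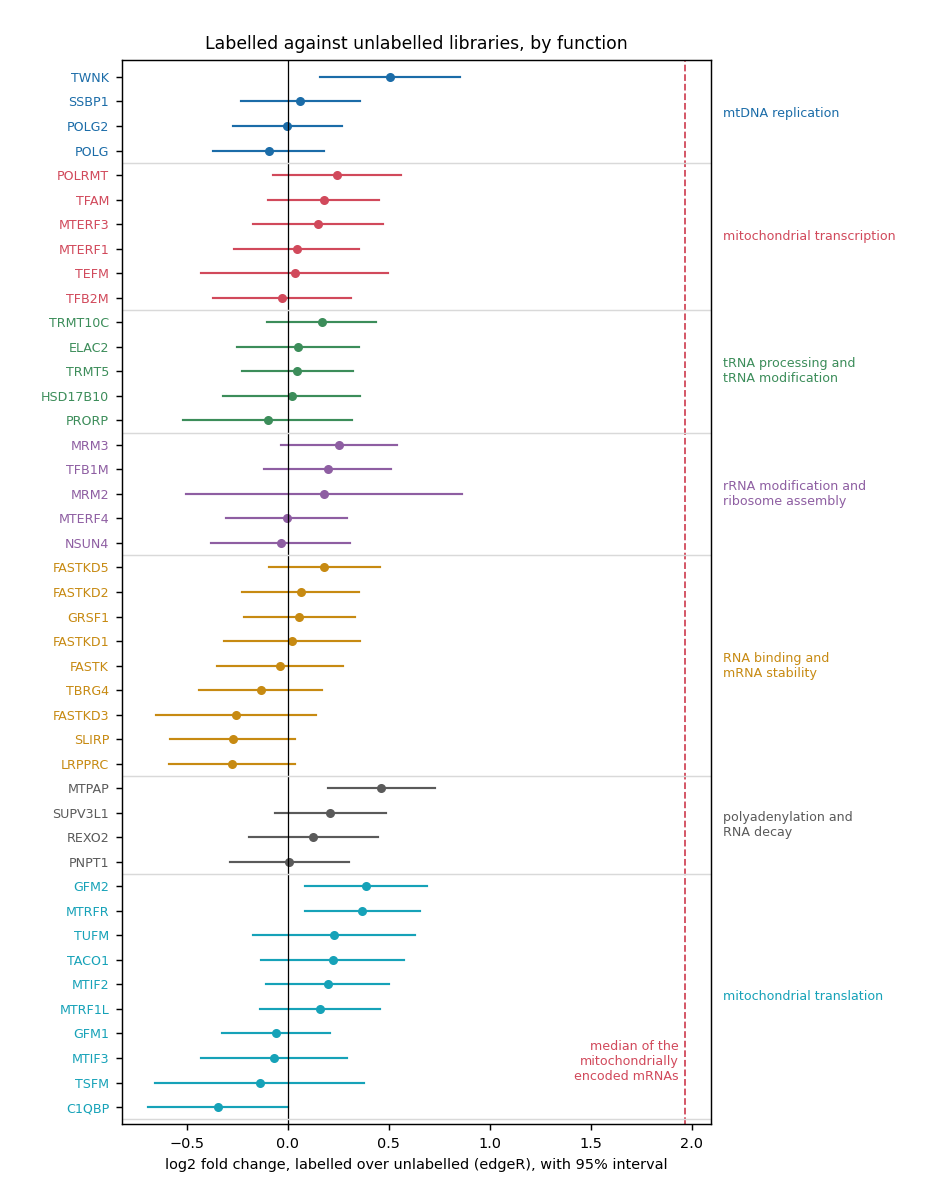
The log2 fold change of each member, labelled over unlabelled, from edgeR with its 95% interval (lines), ordered within function; the solid line marks 0 and the dashed line the median of the 13 mitochondrially encoded mRNAs at 1.96. The intervals of TWNK, MTPAP, GFM2 and MTRFR lie above 0 and that of C1QBP just below it, and none reaches the dashed line.

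Translation, with 10 members and a median log2 fold change of 0.18, held values in both directions. GFM2, a G-type elongation factor that splits used ribosomes for recycling, had 35.5 and 29.9 CPM in the unlabelled and 45.9 and 40.02 CPM in the labelled libraries. MTRFR, a factor that rescues stalled ribosomes, had 31.3 and 34.6 CPM against 39.9 and 44.8 CPM. All labelled values were above the unlabelled ones for both, with log2 fold changes of 0.39 ± 0.14 and 0.37 ± 0.13 and edgeR adjusted p of 0.343 and 0.334. GFM2 was at 0.55 without unlabelled replicate 1 and 0.27 without unlabelled replicate 2. GFM1, the elongation factor that moves the ribosome along the mRNA, had -0.06 ± 0.12. Among the initiation factors, MTIF2 had 49.6 and 39.2 CPM against 49.7 and 52.5 CPM, and MTIF3 had a log2 fold change of -0.07 ± 0.17. MTIF2's log2 fold change of 0.20 ± 0.14 became 0.41 without unlabelled replicate 1 and 0.051 without unlabelled replicate 2. MTRF1L, a release factor, and TACO1, an activator of cytochrome c oxidase subunit 1 translation, had 0.16 ± 0.14 and 0.22 ± 0.16, with the groups apart.

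C1QBP, a matrix protein that binds RNA and supports mitochondrial translation (ENSG00000108561.8, chromosome 17, 5432777 to 5448830), had the lowest log2 fold change of the list. It had 379.9 and 293 CPM in the unlabelled and 270.1 and 259.7 CPM in the labelled libraries. The labelled values were below both unlabelled ones, and unlabelled replicate 1 stood well above the other 3 libraries. The log2 fold change of -0.35 ± 0.16 (edgeR adjusted p = 0.432) became -0.52 without unlabelled replicate 2 and -0.12 without unlabelled replicate 1. TUFM, the elongation factor that brings tRNAs to the ribosome, had 249 and 161 CPM in the unlabelled and 249 and 232.5 CPM in the labelled libraries. Here 3 libraries were nearly level and unlabelled replicate 2 was far lower. The log2 fold change of 0.23 ± 0.18 went to 0.61 without unlabelled replicate 1 and to -0.04 without unlabelled replicate 2. TSFM, which reloads TUFM with GTP, had 7.35 and 8.0 CPM against 7.58 and 6.35 CPM, with overlap, and shares 71.2% of its exon bases with other genes.

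Relative to other nuclear RNA, the members' summed level was much the same in the 4 libraries. Summed over all 43 members, the share of nuclear fragments was 0.375% (95% Wilson interval 0.370 to 0.379%) and 0.364% (0.359 to 0.370%) in the unlabelled and 0.377% (0.373 to 0.382%) and 0.372% (0.368 to 0.376%) in the labelled libraries. The group means of 0.370% ± 0.00740 and 0.374% ± 0.00378 (SD, n = 2 each) gave a ratio of 1.01 (exact permutation p = 0.667, two-sided), and the groups overlapped. As a share of all assigned fragments the order was different, with 0.341% and 0.326% in the unlabelled libraries against 0.275% and 0.256% in the labelled ones. That ratio was 0.796 (exact permutation p = 0.333, two-sided), and its denominator includes the mitochondrial fragments, which were a larger part of the labelled libraries. For each member fragment there were 24.4 and 31.0 fragments of the 13 mitochondrially encoded mRNAs in the unlabelled libraries against 96.0 and 113 in the labelled ones. The means, 27.7 ± 4.68 and 104 ± 11.8 (SD, n = 2 each), differed 3.77-fold, at the smallest p the design allows (exact permutation p = 0.333, two-sided). Wilson intervals cover counting error only, since the reads carry no molecular identifiers and copies of 1 molecule are counted again. For the 16 members with no exon base shared with another gene, the share of nuclear fragments had a ratio of 1.07 (exact permutation p = 0.333, two-sided). Of the functions whose sums are not given above, mtDNA replication had a ratio of nuclear shares of 1.09 (exact permutation p = 0.333, two-sided). The groups overlapped for tRNA processing (ratio 1.04), rRNA modification (1.06) and translation (0.990).

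Levels of the members per kilobase spanned 98.0-fold, around a median of 9.53 CPM per kb of annotated exons (mean over the 4 libraries). C1QBP at 129 CPM per kb (111 to 163) and TUFM at 101 CPM per kb (72.9 to 113) overlapped each other and stood clear of all the rest on this length. Per kb of transcript (the one with the longest coding sequence in GENCODE 29) the order was C1QBP at 257, SSBP1 at 152, TUFM at 108, SLIRP at 96.2 and HSD17B10 at 89.9 CPM per kb, so TUFM did not stand apart there. Next came SLIRP at 31.6, HSD17B10 at 30.6, SSBP1 at 30.2, TFAM at 27.9 and POLRMT at 25.9 CPM per kb, whose ranges over libraries ran into each other in that order. GRSF1 at 19.8 CPM per kb and TBRG4 at 15.6, neighbours in this order, had ranges that did not overlap. The ranges of MRM3 (17.0 to 22.8) and TWNK (13.8 to 25.1) spanned the space between them. The lowest were TEFM at 3.49, FASTKD2 at 2.99, MTERF4 at 2.61, TSFM at 2.28, PRORP at 1.73 and MRM2 at 1.31 CPM per kb. MRM2, TSFM, MTERF4 and PRORP are also the members that share the largest parts of their exons with other genes (45.9 to 90.9%). The length used also matters for LRPPRC, whose merged exons are 34689 bases long in the annotation of the table. It stood at 8.73 CPM per kb of these, and at 47.8 CPM per kb of that transcript (6335 bases).

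**Figure D3:**
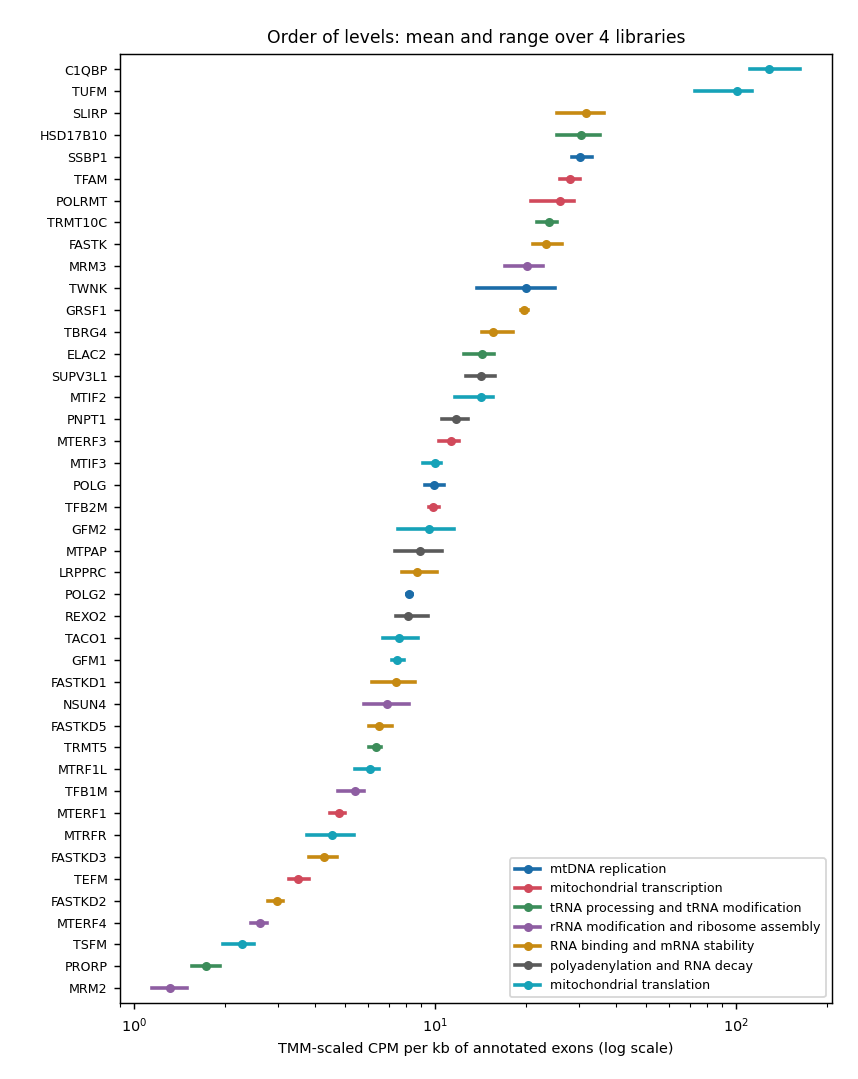
Mean (dot) and range (line) over the 4 libraries of TMM-scaled CPM per kb of annotated exons (log scale) for the 43 members, coloured by function. C1QBP and TUFM stand apart at the top on this length, while per kb of transcript SSBP1 (152) lies above TUFM (108). The functions are mixed along the rest of the scale, with the factors of polyadenylation and decay only from 8.13 to 14.2 CPM per kb.

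The replicates of the unlabelled group differed from each other more than those of the labelled group. The median absolute log2 difference over the members was 0.147 between the unlabelled replicates and 0.0812 between the labelled ones, and over all genes it was 0.249 and 0.131. Unlabelled replicate 1 lay closer to labelled replicate 1 (0.121 over the members) than to unlabelled replicate 2. Unlabelled replicate 2 held the lowest value of the 4 libraries for 19 members, and labelled replicate 2 for 4. The difference between the unlabelled replicates went with the GC content of the transcripts. Over the 43 members its Pearson correlation with GC content was -0.52, and -0.19 over 16588 genes; these are genes within 1 pair of libraries, which share depth and base composition. Among the 22 members with a GC content of 42.8 to 66.3%, 15 were lower in unlabelled replicate 2, with a median of -0.17, and among the other 21, 10 were lower, with a median of 0.02. TUFM (-0.63), TWNK (-0.48) and HSD17B10 (-0.48) were lowest in unlabelled replicate 2 relative to replicate 1, and NSUN4 (0.50) and FASTKD1 (0.47) highest. Between the labelled replicates the correlation over the members was -0.27. The part of this library difference in the members' fold changes was not tested beyond the fits given here. With the GC trend removed in every library, 0 members and 0.357% of all genes were called. The members' median log2 fold change stayed at 0.05 and their lowest edgeR adjusted p was 0.149, for MTPAP.

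**Figure D4:**
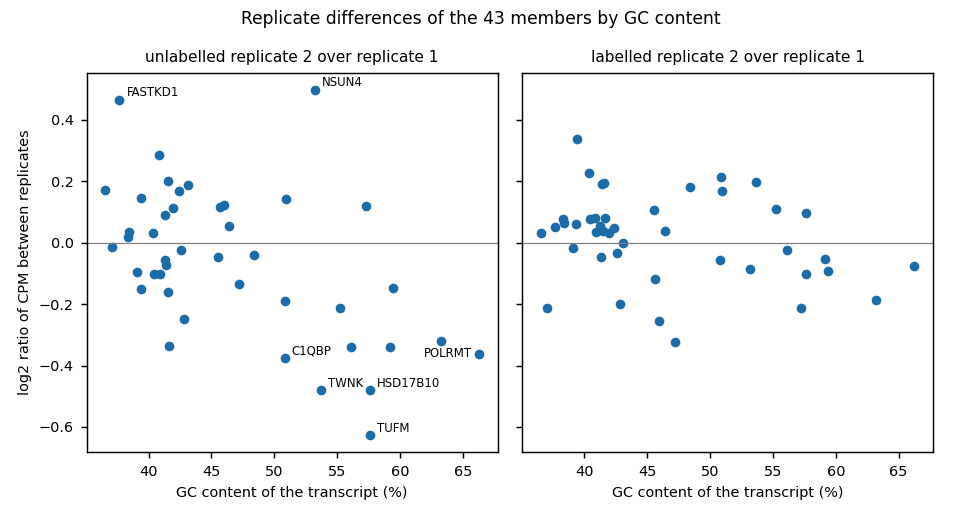
The log2 ratio of TMM-scaled CPM between replicates (replicate 2 over replicate 1) against the GC content of the transcript in percent, 1 dot for each of the 43 members, in the unlabelled group (left) and the labelled group (right). On the left the members of high GC content lie mostly below 0, with TUFM lowest at -0.63, and on the right the dots stay closer to 0.

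Other genes of the same pathway were described the same way, from a list of 61 that covers mtDNA maintenance, tRNA modification, rRNA modification, ribosome assembly, RNA binding and translation. All 61 were tested, 0 passed with edgeR or DESeq2, and 6 were higher and 1 lower at an unadjusted edgeR p under 0.05 (5.67% and 5.88% of all genes). Their median log2 fold change was 0.09, with 38 positive (48% of all genes), and the groups were apart in 25 with labelled higher and in 7 with labelled lower (22.2% and 22.4% of all genes). The lowest p belonged to MTG1, a GTPase of ribosome assembly, at 27.4 and 30.8 CPM in the unlabelled and 21.0 and 22.9 CPM in the labelled libraries (log2 fold change -0.40 ± 0.14, edgeR adjusted p = 0.330). PTCD1, an RNA binding protein, had 10.1 and 6.64 CPM against 14.3 and 11.9 CPM (0.62 ± 0.23, edgeR adjusted p = 0.361). Of the exon bases of these genes, 57.3% of MTG1's and 58.4% of PTCD1's are shared with other genes. MALSU1, a ribosome assembly factor, was at 30.6 and 26.1 CPM against 34.2 and 39.0 CPM. MTFMT, which formylates the initiator tRNA, was at 13.1 and 12.2 CPM against 16.4 and 18.0 CPM, and DDX28, a helicase of ribosome assembly, at 22.9 and 18.4 CPM against 26.0 and 28.3 CPM. In these 3 genes the labelled libraries were both higher, with log2 fold changes of 0.36 to 0.44 and edgeR adjusted p from 0.370 to 0.381.

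Beside lists of other mitochondrial genes, the members lay with the nuclear genes and far from the transcripts made in the matrix. For the 77 mitochondrial ribosomal protein genes tested the median log2 fold change was 0.07, with 0 calls. At an unadjusted edgeR p under 0.05, 7 of them were higher and 8 lower (5.67% and 5.88% of all genes). The 81 nuclear-encoded respiratory chain subunits tested had a median of -0.18, with 70 negative and 0 calls, and 25 were lower at an unadjusted edgeR p under 0.05 (5.88% of all genes). The median transcript of these subunits is 1257 bases long, beside 2528 bases for the members and 2773 bases for all genes tested. The median transcript of the ribosomal protein genes is 1532 bases long. The part of transcript length in these fold changes was not tested. For the 13 mitochondrially encoded mRNAs, which the members' proteins serve, the median was 1.96, with 4 called by edgeR and 11 by DESeq2. The differences between these lists were not tested.

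**Figure D5:**
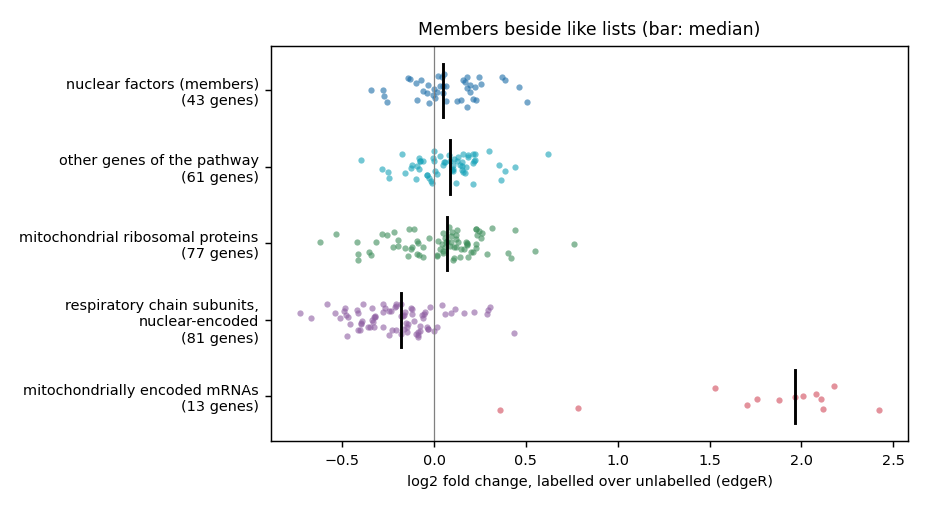
Log2 fold change, labelled over unlabelled (edgeR), of each tested gene (dots, spread vertically for view) in the 43 members and 4 like lists, with the median of each list as a bar. The medians of the members (0.05), other genes of the pathway (0.09) and ribosomal proteins (0.07) lie close to 0, that of the respiratory chain subunits at -0.18 and that of the mitochondrially encoded mRNAs at 1.96.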

How the data were processed

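The deposited table holds raw fragment counts per gene, which the authors made with featureCounts 1.6.4 on GENCODE 44, per the file headers, over exons summed by gene, without a strand option. Fragments that touch exons of 2 genes are therefore not counted, whatever the strand. The submitters' processing notes name STAR 2.7.9a, GRCh38 and DESeq2 1.42.0. The exon length used for CPM per kb is the deposited table's own column, and transcript length and GC content came from GENCODE 29. The library totals are the sums of the deposited counts in each library.

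Groups and replicate numbers came from the sample titles. The counts of all 4 libraries were fitted in 1 model, with no block, with edgeR 4.0.16 in R 4.3.3 (filterByExpr, TMM, quasi-likelihood test). Benjamini-Hochberg adjustment was over 18973 genes and the threshold was an adjusted p of 0.05. Alternatives were DESeq2 1.42.0 as a test and for size factors, library size alone, nuclear genes only, no filter, a filter of 1 CPM in 2 libraries, a replicate block, counts thinned to the smallest library, and each library left out. With 1 library left in a group, its spread is assumed to be that of the other group. Removal of a loess trend on GC content was added after seeing the data. Summed shares were compared with an exact permutation test over the 6 arrangements of the libraries, and 95% Wilson intervals came from SciPy 1.17.1, with Python 3.11.15, NumPy 2.4.6, pandas 2.3.3 and matplotlib 3.10.9.

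The members, their functions, all other lists and the rule for which genes to name were chosen with earlier results of these data known. The rule gave values in every library for the 8 members with the smallest p, the 3 with the highest and the 3 with the lowest log2 fold change, the highest and lowest CPM per kb of each function, and the 5 other pathway genes with the smallest p. TFB2M, TRMT10C, TFB1M, NSUN4, POLRMT, TUFM, MTIF2, GRSF1, FASTKD1, FASTKD3 and FASTKD5 were added after their values were seen. The edgeR test was tried on simulated counts, where 65 of 96 genes with a log2 change of 1 and 90 of 95 with 2 were recovered, with 5 false calls among 19271 genes tested. Sequences and promoters are RefSeq's, on GRCh38.p14. Xenograft tumours, which the series' design mentions, are not analysed here.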

Additional observations from a re-analysis of the deposited data

How the results depend on the processing

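With 2 libraries per group, calls on single members turn on which library is left out: over the 4 such fits 0 to 8 members were called higher and 0 to 2 lower, 8 and 1 without unlabelled replicate 1, where 19% of all genes were called, 2 and 2 without unlabelled replicate 2, where 4.61% were, and 0 without either labelled library. The median log2 fold change of the members was 0.064 to 0.13 in these fits. The medians were -0.023 to 0.11 for mtDNA replication, 0.094 to 0.15 for transcription, 0.0033 to 0.25 for tRNA processing, 0.077 to 0.21 for rRNA modification, -0.18 to 0.021 for RNA binding, 0.12 to 0.29 for polyadenylation and decay, and 0.021 to 0.23 for translation; TUFM ran from -0.042 to 0.61. Scaling by library size alone moved the median of all genes to -0.37 and that of the members to -0.30, and then called 6 members lower (C1QBP, LRPPRC, SLIRP, TBRG4, POLG and GFM1), where 14.5% of all genes were called. Under it the medians by function were -0.33 (replication), -0.26 (transcription), -0.31 (tRNA), -0.18 (rRNA), -0.39 (RNA binding), -0.18 (decay) and -0.18 (translation), and 4 members were positive (TWNK, MTPAP, GFM2 and MTRFR) in place of 28. Of those that turned negative, 12 had been above 0 by more than their standard error: POLRMT -0.11, TFAM -0.18, MTERF3 -0.21, TRMT10C -0.19, TFB1M -0.16, MRM3 -0.10, FASTKD5 -0.18, SUPV3L1 -0.14, TUFM -0.12, MTIF2 -0.16, MTRF1L -0.20 and TACO1 -0.13; the other 12 had been within it. Relative to the median of all genes, 30 of the 43 members were above it under both scalings. Without a filter the members' median was 0.077 and that of transcription 0.12, and with thinned counts that of rRNA modification was 0.13. The summed member level, 0.796 as a ratio of shares of all fragments, was 1.01 as a ratio of nuclear shares. With DESeq2, its size factors, nuclear genes only, no filter, the CPM filter, thinning, the replicate block or the GC trend removed, 0 members were called. Few genes were called in these fits over the whole table. In that order they were 80, 57, 4, 302, 53, 53, 236 and 65, of 17226 to 39689 genes tested. The titles do not say whether the shared replicate numbers mark pairs. Deviations of same-numbered libraries had a correlation of -0.07 over 18973 genes, which cannot decide it with 2 libraries per group. With the replicate block the members' median was 0.06, and 236 genes were called over the whole table against 54 without it. Depth limits MRM2 most, with 22 to 45 fragments per library.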

Other observations

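The members lie on 19 chromosomes, with 6 each on chromosomes 2 and 17, 5 on chromosome 7, 4 on chromosome 10 and 1 (HSD17B10) on X. Across the 43 members the log2 fold change had a Pearson correlation of 0.12 with GC content, 0.16 with log2 transcript length and -0.06 with log2 mean CPM, all over genes of the same 4 libraries. Annotated pseudogene copies were listed for 10 members, 16 copies in all. The highest count of any copy in a library was 19 fragments (POLRMTP1), and 8 copies were at 0 in all 4 libraries.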
